A study of Danio rerio with 27 samples.

Results

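Sorted epidermal cells of adult zebrafish mutant for spic were compared with sorted epidermal cells of their siblings. The comparison used 14 of the 27 libraries of the series, 7 mutant and 7 sibling, taken by their column labels, and the other 13 libraries came from gill. Both groups carried the transgenes spic:EGFP and mpeg1:DsRedx. Each library held 30 cells that were positive for EGFP and negative for DsRedx, which the labels call progenitor cells, and was amplified by Smart-seq2 with 23 PCR cycles. The gate therefore followed the activity of a spic reporter, in mutants as in siblings, and took no marker of cell type beyond these reporters. The sources used here do not state the mutant allele, the siblings' full genotype or the number of fish behind each group. The spread behind each p-value is therefore that between libraries, and may be technical in part. Levels are in TPM, in which gene length and library size are divided out. Of 32520 genes in the table, 9864 had at least 1 TPM in at least 5 of the 14 libraries and were tested.

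Spic is a transcription factor of the Ets family and a relative of Spi1 (PU.1), the factor that directs blood progenitors to myeloid fates. In mammals Spic is known for its role in the iron-recycling macrophages of the spleen. Metaphocytes are cells of zebrafish skin, gill and gut that resemble macrophages in their expressed genes, arise from ectoderm or endoderm and not from blood progenitors, and carry soluble antigen across the epithelium to immune cells. Fish skin also holds Merkel cells, epidermal mechanosensory cells with dense-core granules that use Atoh1 and Sox2, as well as ionocytes, mucous cells and keratinocytes.

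The libraries were not equally complete. Mutant libraries held 7534 ± 814 genes at 1 TPM or more (SD, n = 7) and sibling libraries 8631 ± 511 (SD, n = 7), with mutants 2 and 4 the lowest. The median correlation of a library with the others of its group, across genes, was 0.463 to 0.518 in mutants and 0.638 to 0.684 in siblings. Mutant 7 stood apart: its correlation with the mean of the other mutants, 0.618, was the lowest of the 7, and that with the sibling mean, 0.540, the highest. Sibling 1 held the highest summed Merkel cell markers of its group. Counts of list members below that changed by over 1.5 times without mutant 7, without sibling 1 or without mutants 2 and 4 are given both ways.

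The targeted gene was low in every mutant library. spic (ENSDARG00000012435) stood at 7.37 to 125 TPM (median 32.6) in mutants, against 561 to 760.2 TPM (median 621) in siblings. The groups did not overlap, with mutant 5 the highest mutant. The difference in mean log2(TPM + 1), mutants minus siblings, was -4.55 (two-sided exact permutation test, p = 0.000583, the smallest that 3432 regroupings can give). The mutant mean was 38.9 TPM, or 24.5 TPM without mutant 5. mpeg1.1, a pore-forming protein of macrophages whose promoter is that of the excluded DsRedx reporter, stood at 0.557 to 1.85 TPM (median 1.40) in mutants, against 101 to 335 TPM (median 216) in siblings (log2 change -6.47, SE 0.60, adjusted p = 1.49e-07). Cells negative for the DsRedx reporter still held mpeg1.1 transcript in all 7 sibling libraries, while no mutant library reached 2 TPM.

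Across the tested genes, 1814 passed an adjusted p of 0.05 in limma, 18.4% of them. Of these, 559 were higher in mutants (5.67% of the tested genes) and 1255 lower (12.7%). The groups did not overlap for 212 higher genes (2.15%) and 467 lower genes (4.73%), together 6.88%. The balance of directions depended on scaling. Over all tested genes the log2 change had a median of -0.46. Quantile normalization brought this median to -0.03 and gave 843 higher and 1021 lower genes (8.55% and 10.4% of those tested), so that 45.2% of the calls were higher in place of 30.8%. Median centring brought the median to 0.75 and gave 1500 higher and 397 lower genes (15.2% and 4.02%), with 79.1% of the calls higher. All 559 higher calls were kept under median centring and 397 of the 1255 lower ones, whereas quantile normalization kept 556 and 999. A covariate for detected genes, a number that itself differed between the groups, left 299 higher and 443 lower genes. A gene near 0 in one group passes the filter only through the other group, so the tested members of a list lean towards genes that differ. The count of each list below is to be read with that in mind and against the shares of all tested genes, 12.7% lower and 5.67% higher. In pools of cells, a smaller share of cells of a type and less RNA of a gene per cell cannot be told apart.

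**Figure D1:**
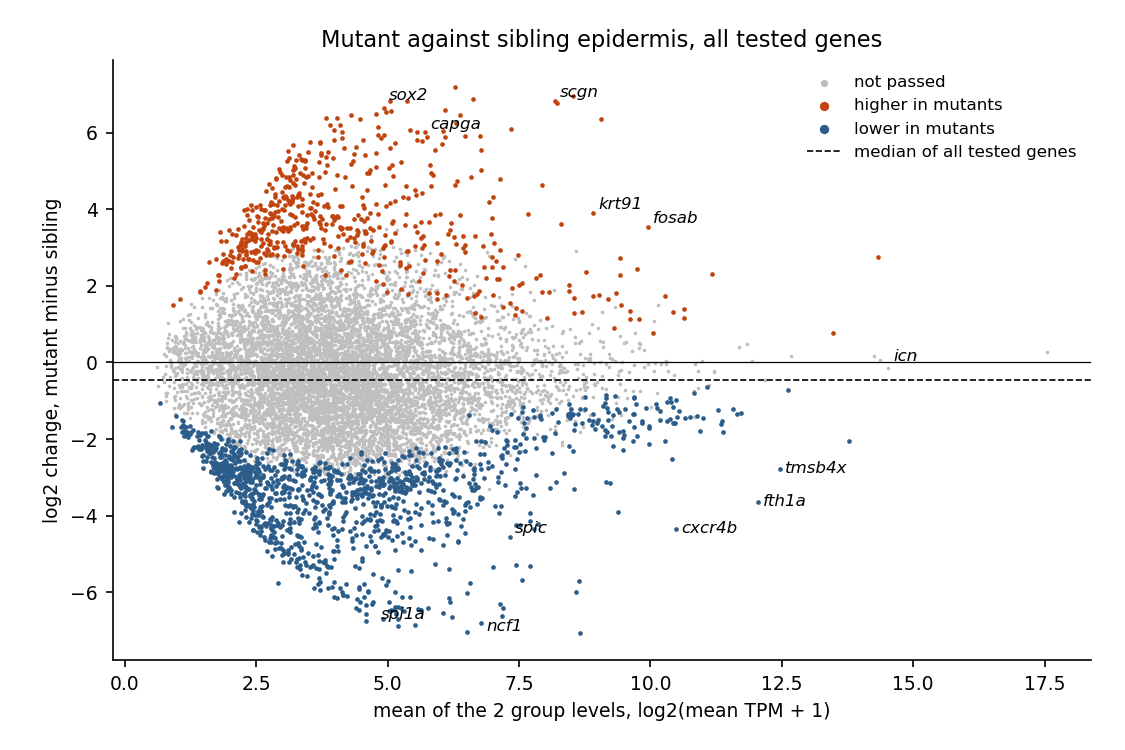
Log2 change of each tested gene (vertical axis, mutant minus sibling, on the log2(TPM + 1) scale) against the mean of both group levels (horizontal axis, log2(mean TPM + 1)). Coloured points passed limma at an adjusted p of 0.05, 559 of them higher and 1255 lower in mutants, and the dashed line marks the median change of -0.46.

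Genes that were abundant in siblings and lower in mutants kept a mean above 0 in mutants, although single libraries were listed at 0, as mutants 2, 4, 5 and 7 were for spink4. Among 249 lower genes with a sibling mean of 200 TPM or more, the mutant mean was 31.4% of the sibling mean at the median and 0.524% at the lowest, under 1% for 27 genes, under 2% for 40 and under 0.5% for 0. In the other direction, 114 higher genes had a mutant mean of 200 TPM or more, and their sibling mean was 10.8% of it at the median and 0.225% at the lowest. In either set, 0 genes were listed at 0 in every library of the lower group. Whether values of this size were transcripts of the sorted cells was not tested.

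Genes were ranked by the size of their change among those past the threshold with a group mean of at least 10 TPM, leaving out clone-based names. Such a name, si:ch73-343g19.4, had a log2 change of -7.06. The 12 largest falls so ranked included genes of phagocytes, cytokine receptors and an actin-severing protein. crfb15, a class II cytokine receptor gene, stood at 1.12 to 5.85 TPM (median 3.70) in mutants, against 323 to 709.7 TPM (median 470.4) in siblings. il22ra2, a soluble receptor for interleukin 22, stood at 0 to 4.90 TPM (median 0.736) in mutants, against 42.9 to 695 TPM (median 318) in siblings. No mutant library came near the lowest sibling library of either gene. mmp9, a secreted gelatinase of migrating leukocytes, stood at 0.853 to 2.18 TPM (median 1.202) in mutants, against 129.7 to 531 TPM (median 192.6) in siblings. elovl5, an elongase of polyunsaturated fatty acids, stood at 0.952 to 3.90 TPM (median 2.17) in mutants, against 197 to 395 TPM (median 355) in siblings. gsna, an actin-severing gelsolin, stood at 0.955 to 12.5 TPM (median 4.15) in mutants, against 247 to 585 TPM (median 444) in siblings. For these 3 genes too every sibling lay far above every mutant. spink4, named as a serine protease inhibitor, pigrl4.2, a polymeric immunoglobulin receptor-like gene, and cdh28, a cadherin, had log2 changes of -6.69, -6.57 and -6.48, with adjusted p values in limma of 3.10e-06, 2.29e-08 and 3.10e-08.

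Transcription factors of blood lineages split. spi1a, a zebrafish PU.1 gene, stood at 2.40 to 7.25 TPM (median 5.22) in mutants, against 325 to 592 TPM (median 564) in siblings (log2 change -6.41, SE 0.49, adjusted p = 1.36e-08). ikzf1, the lymphoid and myeloid factor Ikaros, stood at 0.133 to 0.995 TPM (median 0.410) in mutants, against 17.1 to 75.02 TPM (median 38.3) in siblings (log2 change -4.71, SE 0.71, adjusted p = 7.50e-05). Neither gene overlapped between the groups. gfi1ab, a repressor used in blood and in sensory hair cells, was the reverse, at 4.28 to 546 TPM (median 175) in mutants, against 0.236 to 28.0 TPM (median 0.874) in siblings (adjusted p = 0.00110), with mutant 4 lowest and sibling 2 above all other siblings. Of the 26 blood factors in the table, 13 were tested. In mutants 4 fell, spi1a, spi2, ikzf1 and irf5, and 2 rose, gfi1ab and mafba; among all tested genes 12.7% fell and 5.67% rose. Under median centring 5 rose and 2 fell, and without mutants 2 and 4 each direction had 2. spi2 lost its call in 10 of the 14 fits that left out a library (adjusted p in limma up to 0.0635).

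The phagocyte NADPH oxidase makes superoxide and is built from a membrane pair, Cyba and Cybb, and cytosolic subunits that include Ncf1, Ncf4 and Rac2. All 6 genes of the list were tested, and 4 fell (66.7%, against 12.7% of all tested genes). ncf1, the organizer subunit, stood at 4.64 to 16.05 TPM (median 8.30) in mutants, against 686 to 2018 TPM (median 1181) in siblings (log2 change -6.80, SE 0.44, adjusted p = 1.88e-09). rac2, the leukocyte Rac GTPase, stood at 1.02 to 2.14 TPM (median 1.40) in mutants, against 149 to 243 TPM (median 185) in siblings. cyba, the small membrane subunit, stood at 4.73 to 85.7 TPM (median 27.1) in mutants, against 717 to 1515 TPM (median 1073) in siblings. No mutant approached the sibling range of these 3 genes, but mutants 1, 3, 4 and 7 held more cyba than the other mutants. cybb, the catalytic membrane subunit, stood at 1.25 to 52.8 TPM (median 10.7) in mutants, against 4.70 to 122 TPM (median 71.4) in siblings, and did not pass (adjusted p = 0.0790), and ncf4 did not pass either (adjusted p = 0.0659). The median log2 change of the 6 genes was -4.87, or -4.41 relative to all tested genes.

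**Figure D2:**
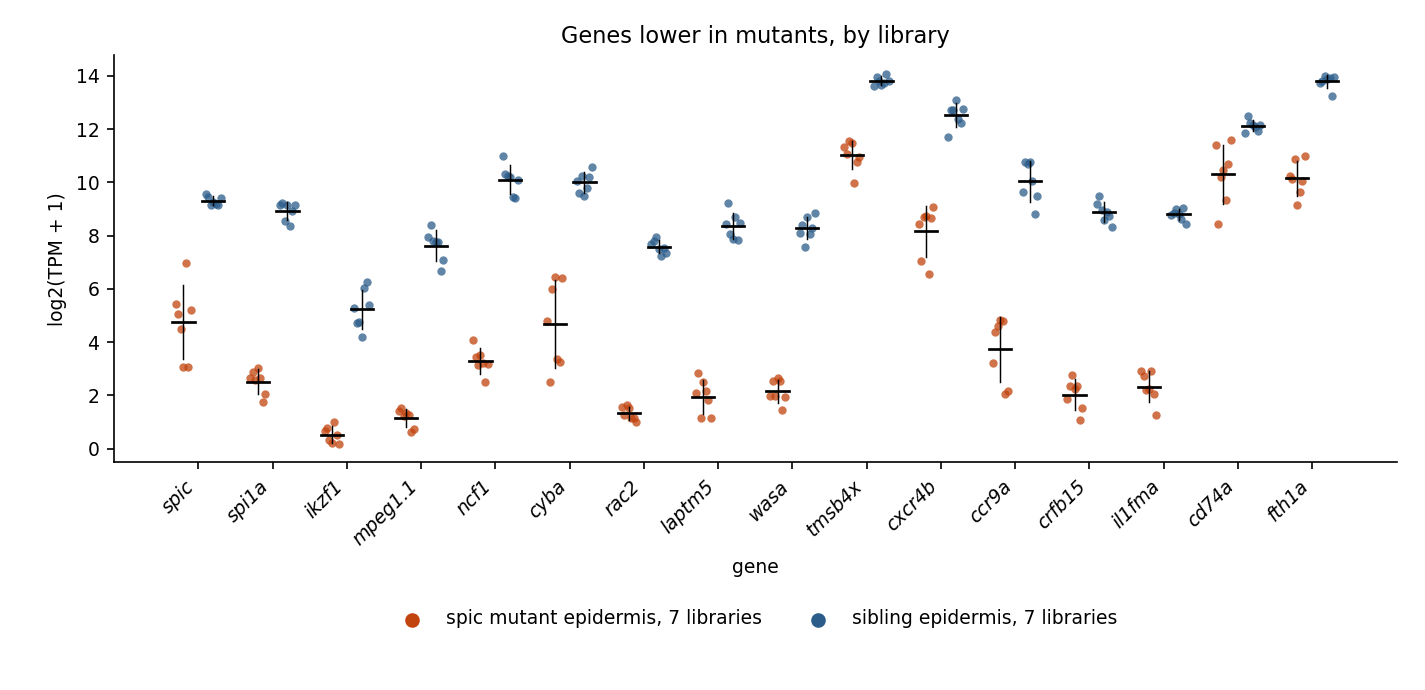
Level of 16 genes in each epidermal library, as log2(TPM + 1), with mutant libraries on the left of each pair and sibling libraries on the right, bars for the mean and lines for the SD over 7 libraries. The groups do not overlap for any of the 16 genes, while the gap is narrow for cd74a and wide for spi1a and ncf1. Most of these genes were chosen by their results in these same libraries, and 4.73% of all tested genes were lower without overlap.

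Most tested genes that carry signals from leukocyte receptors fell. Of 32 such genes in the table, 21 were tested, and 18 fell while 0 rose, against 12.7% and 5.67% of all tested genes. laptm5, a lysosomal regulator of immune receptors, stood at 1.196 to 6.14 TPM (median 3.23) in mutants, against 227 to 594 TPM (median 342) in siblings (log2 change -6.42, SE 0.56, adjusted p = 6.50e-08). lcp2a, the adaptor SLP-76, stood at 0.780 to 2.36 TPM (median 1.61) in mutants, against 119 to 296 TPM (median 161) in siblings. pik3cd, the leukocyte catalytic subunit of phosphoinositide 3-kinase, stood at 0.221 to 0.700 TPM (median 0.486) in mutants, against 39.2 to 54.1 TPM (median 42.3) in siblings. Every sibling library lay above every mutant library for each of these. ptpn6, the phosphatase SHP-1, pik3ap1, an adaptor of phosphoinositide 3-kinase, and fermt3b, the integrin activator kindlin-3, had log2 changes of -5.52, -4.68 and -5.90 (adjusted p of 2.95e-06, 7.21e-05 and 4.62e-06 in limma). The median log2 change of the list was -3.23, or -2.77 relative to all tested genes. Of the 21, 10 were lower under median centring and 9 with detected genes as a covariate.

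Most tested genes of actin assembly and turnover fell as well. Of 33 tested members, out of 39 in the table, 21 fell (63.6%, against 12.7% of all tested genes), 1 rose and 11 did not pass. tmsb4x, the actin monomer-binding thymosin beta 4, was among the most abundant sibling transcripts, at 1018 to 2982 TPM (median 2156) in mutants, against 12600.4 to 17373 TPM (median 14435) in siblings (log2 change -2.79, SE 0.20, adjusted p = 4.17e-09). pfn1, a profilin that feeds monomers to growing filaments, stood at 107 to 340.2 TPM (median 154) in mutants, against 2038 to 3113 TPM (median 2292) in siblings. wasa, the Wiskott-Aldrich protein that switches on the Arp2/3 complex, stood at 1.74 to 5.26 TPM (median 2.97) in mutants, against 189 to 461 TPM (median 308) in siblings. arpc1b, an Arp2/3 subunit enriched in blood cells, stood at 4.94 to 76.9 TPM (median 8.58) in mutants, against 593 to 1582 TPM (median 1012) in siblings. The groups were apart for all 4 genes, and mutant 1 alone held the high mutant value of arpc1b. The paralogues capgb and capga, which cap actin filament ends, changed in opposite directions. capgb stood at 0.526 to 2.01 TPM (median 1.33) in mutants, against 104 to 231 TPM (median 139) in siblings (log2 change -6.09, adjusted p = 4.31e-07). capga stood at 26.9 to 594 TPM (median 472) in mutants, against 0.724 to 25.5 TPM (median 3.46) in siblings (log2 change 6.003, adjusted p = 1.19e-05). The groups did not overlap for either, although reads that match both copies cannot be assigned with certainty. Median centring gave 13 lower and 3 higher members, and the covariate fit 14 lower and 1 higher.

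Of 24 receptors for chemokines, which guide leukocytes, 11 were under 1 TPM in all 14 libraries, 4 passed the filter and were tested, and 2 of these fell. cxcr4b, the receptor for Cxcl12 in migrating cells, stood at 93.8 to 536 TPM (median 403) in mutants, against 3373 to 8800.0 TPM (median 6755) in siblings (log2 change -4.35, SE 0.36, adjusted p = 3.10e-08). ccr9a, a receptor that in mammals directs lymphocytes to the gut, stood at 3.16 to 27.7 TPM (median 20.004) in mutants, against 454 to 1747 TPM (median 1062) in siblings (log2 change -6.31, SE 0.56, adjusted p = 8.79e-08). ccr6b had close medians, at 40.5 TPM in mutants and 37.3 TPM in siblings, and did not pass (adjusted p = 0.949). Among 15 tested cytokine and growth factor receptors 3 fell, crfb15, il22ra2 and il10ra, and 1 rose, il13ra1 (20% and 6.67%, near the 12.7% and 5.67% of all tested genes). Under median centring 3 fell and 4 rose, and without mutants 2 and 4, 3 fell and 2 rose. il10ra, the interleukin 10 receptor chain, stood at 0.0927 to 0.967 TPM (median 0.334) in mutants, against 26.8 to 122 TPM (median 45.7) in siblings, without overlap. il13ra1, a chain of the receptors for interleukins 4 and 13, stood at 500.2 to 1090.0 TPM (median 932) in mutants, against 130.4 to 694 TPM (median 253) in siblings (log2 change 1.77, SE 0.35, adjusted p = 0.00136). Mutant 7 gave its lowest mutant value.

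Of 61 cytokine and chemokine genes 28 were under 1 TPM in all 14 libraries, and 11 passed the filter and were tested. Of these 6 fell (54.5%) and 0 rose, against 12.7% and 5.67% of all tested genes. il1fma, a member of the interleukin 1 family, stood at 1.43 to 6.51 TPM (median 3.71) in mutants, against 346 to 532 TPM (median 446) in siblings (log2 change -6.47, SE 0.51, adjusted p = 1.65e-08). tnfb, a tumour necrosis factor gene, stood at 0 to 3.32 TPM (median 1.14) in mutants, against 25.0 to 224 TPM (median 102) in siblings. Both genes were at most a few TPM in mutants. ccl20a.3, a chemokine gene, stood at 5.52 to 793 TPM (median 7.40) in mutants, against 68.3 to 818 TPM (median 437) in siblings, and mutant 2 alone held the high mutant value. Of 19 tested Toll-like receptors and innate sensors 8 fell and 0 rose (42.1% and 0%). cd180, a Toll-like receptor homologue, stood at 0.322 to 2.36 TPM (median 0.765) in mutants, against 56.0 to 242 TPM (median 122) in siblings (log2 change -5.99, SE 0.64, adjusted p = 1.13e-06). tlr1 and the kinase gene irak4 also passed (adjusted p of 0.00957 and 0.00354 in limma), but 1 member of the list was lower under median centring and 2 with detected genes as a covariate.

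Genes of class II antigen presentation fell less at the median than the NADPH oxidase and leukocyte receptor signalling lists, but more than the Toll-like receptor list. Of 10 tested members 8 fell (80.0%, against 12.7% of all tested genes). The median log2 change was -2.12, or -1.65 relative to all tested genes, beside -4.87, -3.23 and -1.26 for those lists in turn. cd74a and cd74b, which encode the invariant chain that escorts class II molecules, were lower without overlap. cd74a stood at 348 to 3088 TPM (median 1414) in mutants, against 3733 to 5788 TPM (median 4536) in siblings. cd74b stood at 805 to 3492 TPM (median 1745) in mutants, against 4416 to 6335 TPM (median 4566) in siblings. mhc2a, a class II alpha chain, stood at 555 to 5269.8 TPM (median 1142) in mutants, against 1917 to 5469.5 TPM (median 3894) in siblings, and mutant 7 was the only mutant within the sibling range. The list summed to 2322 to 8544 TPM in the other 6 mutants, 17327 TPM in mutant 7 and 12648 to 20215 TPM in siblings. Without mutant 7, 7 of the 10 fell. Median centring and the covariate fit each gave 2 lower members. Class I loading and immunoproteasome genes gave another count, with 1 of 22 tested members lower and 0 higher (and 0 lower without sibling 1 or without mutants 2 and 4), below the 12.7% of all genes. For this class I list, quantile normalization gave 1 higher and 0 lower members, and median centring 4 higher and 0 lower. b2m, the class I light chain, stood at 2473 to 5359 TPM (median 3659.8) in mutants, against 2166 to 3513 TPM (median 2776) in siblings (adjusted p = 0.151). Under both of these scalings b2m passed as higher.

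Lysosomal genes fell in 6 of 28 tested cases and rose in 1 (21.4% and 3.57%, against 12.7% and 5.67% of all tested genes), and with detected genes as a covariate 2 fell and 1 rose. grn2, a short granulin gene, stood at 1.36 to 41.8 TPM (median 16.8) in mutants, against 133 to 6032 TPM (median 1359.5) in siblings (log2 change -5.68, SE 0.80, adjusted p = 3.44e-05). grna, a progranulin gene, stood at 0.954 to 80.2 TPM (median 11.6) in mutants, against 102 to 300.5 TPM (median 177) in siblings. Mutant and sibling libraries did not overlap for either, and grn2 varied more among siblings than grna did. ctsla, a cathepsin L gene, was the member that rose, at 4.66 to 237 TPM (median 55.4) in mutants, against 0.131 to 19.7 TPM (median 1.48) in siblings (adjusted p = 0.0187). Of 13 tested iron genes 3 fell and 0 rose, where 12.7% and 5.67% of all tested genes did, and 2 fell without mutants 2 and 4. fth1a, the ferritin heavy chain that stores iron, stood at 569.8 to 2046 TPM (median 1115) in mutants, against 9624 to 16194 TPM (median 15239) in siblings (log2 change -3.64, SE 0.24, adjusted p = 1.88e-09). tfr1b, a transferrin receptor for iron uptake, stood at 16.1 to 139 TPM (median 47.5) in mutants, against 297 to 721 TPM (median 543) in siblings (log2 change -3.28, SE 0.49, adjusted p = 7.71e-05). No mutant library reached a sibling library for either gene. hmox2a, a heme oxygenase, did not pass (adjusted p = 0.393). Of 8 tested eicosanoid enzymes 0 passed limma in either direction, with 2 at an unadjusted p under 0.05 and 0 in the exact rank test. ptgs2b, a cyclooxygenase of prostaglandin synthesis, stood at 5.88 to 237 TPM (median 110.2) in mutants, against 97.5 to 293 TPM (median 118) in siblings. alox5a, the 5-lipoxygenase of leukotriene synthesis, stood at 14.3 to 215 TPM (median 148) in mutants, against 90.9 to 271 TPM (median 201) in siblings. For ptgs2b, mutants 2, 5 and 7 were low and the other mutants lay within the sibling range. Of 13 tested interferon response genes 0 passed as well, with 4 at an unadjusted p under 0.05 and 1 in the exact rank test. Among interferon genes quantile normalization gave 1 higher call and median centring 3, without mutant 7 there were 2 lower calls, and without mutants 2 and 4 there was 1 higher call.

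In the opposite direction, 10 of 19 tested transcription factors of sensory and neuroendocrine cells were higher in mutants. Of the 19, out of 51 in the table, 1 fell and 8 did not pass, so that 52.6% rose and 5.26% fell, against 5.67% and 12.7% of all tested genes. Without mutants 2 and 4, 10 rose and 2 fell. sox2, a factor of sensory progenitors and of Merkel cells, stood at 112 to 433 TPM (median 327) in mutants, against 0.450 to 5.51 TPM (median 1.40) in siblings (log2 change 6.65, SE 0.62, adjusted p = 1.79e-07). atoh1a, which in vertebrates specifies hair cells and Merkel cells, stood at 40.2 to 780.2 TPM (median 589) in mutants, against 1.65 to 39.0 TPM (median 4.27) in siblings (log2 change 5.88, SE 0.77, adjusted p = 1.57e-05). Mutant 7 was the lowest mutant for both genes, and sibling 1 the highest sibling for atoh1a. insm1b, a zinc finger factor of endocrine differentiation, stood at 5.65 to 685 TPM (median 354) in mutants, against 0.658 to 1.85 TPM (median 1.19) in siblings. Its paralogue insm1a stood at 36.8 to 608 TPM (median 489) in mutants, against 1.07 to 61.2 TPM (median 1.77) in siblings. Only mutant 7 fell below the highest sibling for insm1a. pou4f1, a POU factor of sensory neurons and Merkel cells, stood at 1.56 to 149 TPM (median 67.4) in mutants, against 0.0904 to 0.455 TPM (median 0.196) in siblings (log2 change 5.29, SE 0.87, adjusted p = 0.000212). drgx, a homeobox factor of sensory neurons, stood at 13.6 to 462 TPM (median 153) in mutants, against 0.132 to 1.59 TPM (median 0.464) in siblings. The groups did not overlap for sox2, atoh1a, insm1b, pou4f1 and drgx. sox3, a close relative of sox2, was the member that fell, at 0.624 to 273 TPM (median 2.14) in mutants, against 41.0 to 233 TPM (median 112) in siblings (adjusted p = 0.00427). Mutant 7 held the 273 TPM, above every sibling, and no other mutant exceeded 2.98 TPM.

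Granule genes were among the largest rises. scgn, secretagogin, a calcium sensor of neuroendocrine cells, stood at 284 to 4756 TPM (median 2960.2) in mutants, against 8.13 to 116 TPM (median 13.4) in siblings (log2 change 6.82, SE 0.63, adjusted p = 1.59e-07). chga, chromogranin A, the main cargo of dense-core granules, stood at 68.5 to 869.8 TPM (median 417) in mutants, against 0.5004 to 12.4 TPM (median 1.41) in siblings (log2 change 6.82, SE 0.68, adjusted p = 4.56e-07). In both, mutant 7 was lowest among mutants and sibling 1 highest among siblings, yet the groups did not overlap. pam, the enzyme that amidates peptide hormones, stood at 84.9 to 298 TPM (median 205) in mutants, against 0.701 to 94.0 TPM (median 26.2) in siblings (log2 change 2.89, SE 0.77, adjusted p = 0.0117). Of 7 tested granule genes, out of 24 in the table, 5 rose and 0 fell (71.4% higher, against 5.67% of all tested genes). Of 6 tested peptide precursors the 2 that rose encode proenkephalins, precursors of opioid peptides. penkb stood at 5.65 to 711 TPM (median 139) in mutants, against 0.187 to 1.42 TPM (median 0.438) in siblings. penka stood at 0.930 to 117 TPM (median 51.2) in mutants, against 0 to 1.01 TPM (median 0.560) in siblings, with mutant 5 within the sibling range and mutant 2 just above it. grp, the gastrin-releasing peptide gene, stood at 0.834 to 864 TPM (median 2.78) in mutants, against 0 to 2.31 TPM (median 0) in siblings, and did not pass (adjusted p = 0.120). Mutant 7 alone held its high value.

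Most tested enzymes and carriers of the serotonin pathway were higher. tph1b and tph1a encode tryptophan hydroxylases, which start serotonin synthesis. tph1b stood at 3.91 to 378 TPM (median 71.9) in mutants, against 0.114 to 1.83 TPM (median 0.429) in siblings. tph1a stood at 1.52 to 197 TPM (median 56.2) in mutants, against 0 to 9.499 TPM (median 0.446) in siblings. ddc, the decarboxylase that finishes serotonin and dopamine, stood at 2.67 to 260.5 TPM (median 179.6) in mutants, against 0 to 1.59 TPM (median 0.609) in siblings (log2 change 5.34, SE 1.04, adjusted p = 0.00102). Mutants 1 and 7 were near the siblings for ddc and the other 5 mutants far above them. slc18a2, the vesicular monoamine transporter, stood at 1.90 to 215 TPM (median 56.0) in mutants, against 0 to 0.705 TPM (median 0.152) in siblings. gch2, a GTP cyclohydrolase of pterin synthesis, fell, at 0 to 3.77 TPM (median 0.361) in mutants, against 2.28 to 207 TPM (median 77.9) in siblings (adjusted p = 0.00109). Of 38 genes of amine and transmitter synthesis and transport in the table, 7 were tested. Of these 4 rose and 1 fell (57.1% and 14.3%, against 5.67% and 12.7% of all tested genes), and with detected genes as a covariate 1 rose.

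Most tested genes of synaptic vesicle fusion were higher. snap25a, a SNARE that acts in synaptic vesicle fusion, stood at 1.02 to 221 TPM (median 101) in mutants, against 0 to 0.835 TPM (median 0.223) in siblings (log2 change 5.50, SE 0.93, adjusted p = 0.000260). vamp2, its vesicle partner, stood at 22.2 to 363 TPM (median 284) in mutants, against 0 to 7.76 TPM (median 1.73) in siblings (log2 change 5.93, SE 0.76, adjusted p = 1.26e-05). The groups did not overlap for either gene, although mutant 7 held little snap25a. syt1a, the calcium sensor of release, stood at 10.204 to 172 TPM (median 52.0) in mutants, against 0.152 to 3.78 TPM (median 0.438) in siblings. snap23.1, a paralogue of snap25a with wide tissue expression, fell, at 2.25 to 60.3 TPM (median 28.7) in mutants, against 58.9 to 123 TPM (median 93.4) in siblings (log2 change -2.37, SE 0.67, adjusted p = 0.0164). The table held 56 fusion genes, of which 15 were tested and 24 were under 1 TPM in all 14 libraries. Of the 15 tested, 9 rose and 1 fell (60.0% and 6.67%, against 5.67% and 12.7% of all tested genes).

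Ion channel genes set the electrical activity of sensory cells. Of 17 tested potassium channel genes, out of 110 in the table, 10 rose and 1 fell (58.8% and 5.88%, against 5.67% and 12.7% of all tested genes). kcnq1.1, a voltage-gated channel, stood at 17.6 to 329 TPM (median 221) in mutants, against 0.404 to 29.3 TPM (median 1.197) in siblings. kcnab1a, a beta subunit, stood at 3.12 to 365 TPM (median 135) in mutants, against 0.0867 to 1.53 TPM (median 0.465) in siblings. Mutant 7 was the lowest mutant for both. kcnk1b, a background potassium channel, fell, at 0.190 to 78.7 TPM (median 0.893) in mutants, against 20.4 to 153 TPM (median 44.9) in siblings (adjusted p = 0.0143). Of 43 voltage-gated calcium and sodium channel genes in the table, 6 were tested. Of these 4 of 6 rose, 6 of 6 without mutant 7 and 3 of 6 without mutants 2 and 4. cacna1ea, an R-type calcium channel, stood at 3.22 to 96.9 TPM (median 35.12) in mutants, against 0.0413 to 14.7 TPM (median 0.188) in siblings. cacna1bb, an N-type calcium channel of transmitter release, stood at 1.52 to 36.0 TPM (median 7.99) in mutants, against 0 to 0.193 TPM (median 0) in siblings. Of 10 tested mechanosensory, TRP and ligand-gated channel genes 1 rose and 1 fell (10% each, near the shares of all tested genes), and 0 fell without mutants 2 and 4. The lower one was tmc5, of the transmembrane channel-like family, at 2.56 to 155 TPM (median 13.4) in mutants, against 48.9 to 236 TPM (median 108) in siblings (adjusted p = 0.0125). With detected genes as a covariate, 8 fate factors, 3 granule genes, 5 fusion genes, 9 potassium channel genes and 2 calcium and sodium channel genes were higher. Members near 0 in siblings, such as cacna1bb, passed the filter only through the mutants. The counts of higher genes in the fate factor, granule, peptide, amine, fusion and channel lists therefore carry no weight of their own.

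The 12 largest rises by the same ranking, which left out the clone-based wu:fk65c09 (log2 change 6.95), also held genes of G-protein, kinase and growth factor signalling. rgs5a, a GTPase activator that shortens G-protein signals, stood at 185 to 4627 TPM (median 3134) in mutants, against 6.26 to 129 TPM (median 10.6) in siblings (log2 change 6.78, SE 0.72, adjusted p = 9.56e-07). rgs13, of the same family, fell, at 255 to 888 TPM (median 727) in mutants, against 1261 to 4012 TPM (median 2229) in siblings (log2 change -2.06, SE 0.34, adjusted p = 0.000208). kitlgb, a ligand of the Kit receptor, stood at 68.1 to 1073 TPM (median 463) in mutants, against 0.314 to 51.3 TPM (median 1.47) in siblings, with sibling 1 holding the high sibling value. camk2n1a, an inhibitor of the kinase CaMKII, stood at 7.54 to 902 TPM (median 351) in mutants, against 0.379 to 3.69 TPM (median 1.46) in siblings. fxyd6, a regulator of the sodium pump, stood at 6.76 to 828 TPM (median 504) in mutants, against 0.440 to 2.24 TPM (median 1.34) in siblings. Mutant 7 was again the lowest mutant for all 4 of the higher genes. fabp1b.2, a fatty acid-binding protein, stood at 175 to 46055 TPM (median 221) in mutants, against 0.486 to 129 TPM (median 12.5) in siblings (log2 change 6.36, SE 1.24, adjusted p = 0.00105), and mutant 2 alone held 46055 TPM. crip3 and yjefn3 were also among the 12, with log2 changes of 6.38 and 6.38. hpca, the neuronal calcium sensor hippocalcin, stood at 3.12 to 228 TPM (median 174) in mutants, against 0 to 0.821 TPM (median 0.505) in siblings, the low mutant values being those of mutants 4 and 7.

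**Figure D3:**
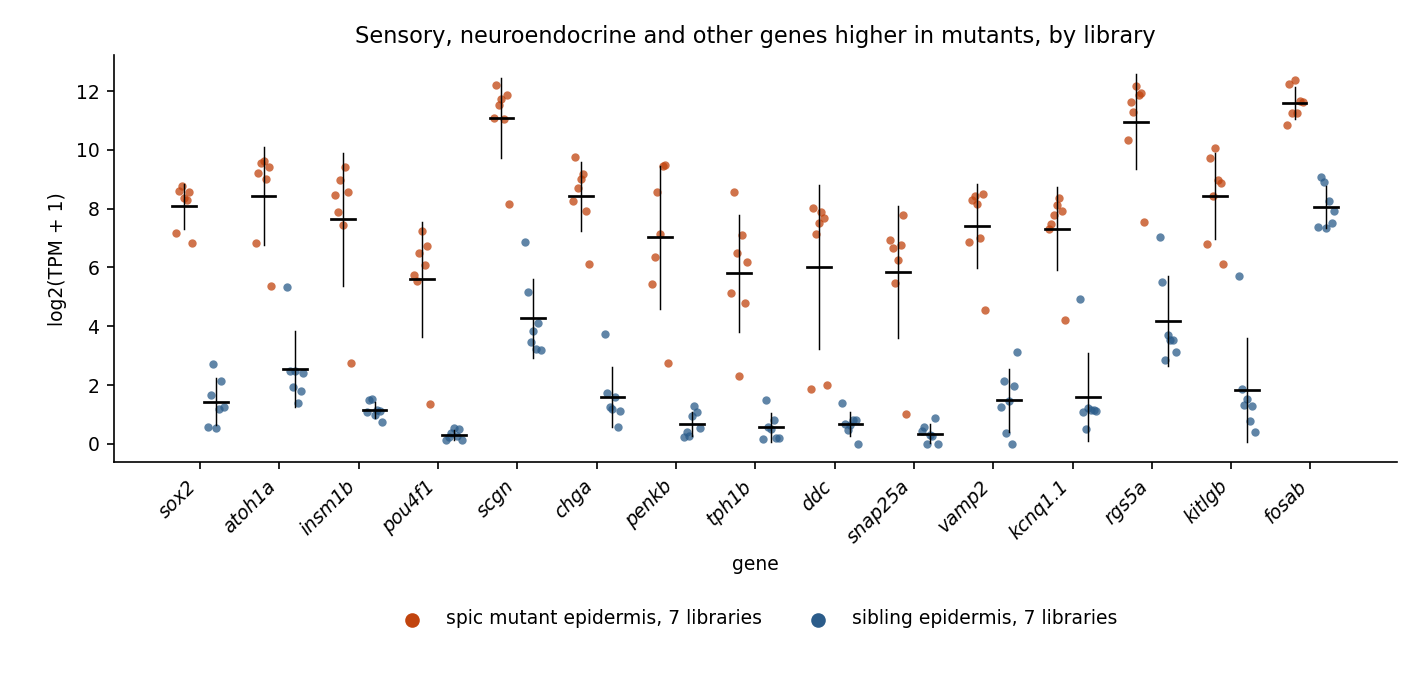
Level of 15 genes in each epidermal library, as log2(TPM + 1), with mutant libraries on the left of each pair and sibling libraries on the right, bars for the mean and lines for the SD over 7 libraries. The groups overlap for kcnq1.1 and for none of the other 14 genes, and the lowest mutant point of scgn, chga and insm1b is mutant 7. These genes were chosen by their results in these same libraries, and 2.15% of all tested genes were higher without overlap.

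Notch genes of both the sending and the receiving side were among the higher genes. In the Notch pathway a Delta ligand on 1 cell activates a receptor on its neighbour, which then turns on Her and Hes repressors. Of 18 tested members 7 rose and 1 fell (38.9% and 5.56%, against 5.67% and 12.7% of all tested genes). The Delta gene dll4 stood at 1.25 to 142 TPM (median 59.1) in mutants, against 0.0392 to 3.18 TPM (median 0.257) in siblings, and dlb stood at 0.575 to 157 TPM (median 50.4) in mutants, against 0.0879 to 1.71 TPM (median 0.347) in siblings. Of these, mutant 7 alone lay within the sibling range. Of the repressor genes, her15.1 stood at 2.89 to 313 TPM (median 185) in mutants, against 0 to 1.01 TPM (median 0.247) in siblings, and hes2.2 at 2.69 to 398 TPM (median 154) in mutants, against 0 to 2.39 TPM (median 0.249) in siblings. Their low mutant values came from different libraries, mutants 2 and 5 for her15.1 and mutants 1, 2 and 7 for hes2.2. mfng, a sugar transferase that modifies Notch receptors, fell, at 0 to 1.35 TPM (median 0.263) in mutants, against 50.3 to 164 TPM (median 80.8) in siblings (log2 change -5.88, SE 0.69, adjusted p = 3.87e-06). Without mutant 7 or without sibling 1, 5 rose and 1 fell, and the covariate fit gave 3 and 1.

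Immediate-early genes, which cells switch on soon after a stimulus or handling, were higher in part. Of 37 tested members, out of 42 in the table, 14 rose and 1 fell (37.8% and 2.70%, against 5.67% and 12.7% of all tested genes). fosab, a c-Fos gene, stood at 1834 to 5251 TPM (median 3144) in mutants, against 159.8 to 537 TPM (median 239.9) in siblings (log2 change 3.55, SE 0.33, adjusted p = 1.79e-07). junba, a Jun gene, stood at 1034 to 2762 TPM (median 1392) in mutants, against 106 to 565 TPM (median 302) in siblings. egr4, a zinc finger factor, stood at 16.6 to 1759 TPM (median 801) in mutants, against 3.2001 to 66.0 TPM (median 6.38) in siblings. All mutants lay above all siblings for fosab and junba, but not for egr4. The summed level of the list was 14399 to 27488 TPM in mutants and 4286 to 9245 TPM in siblings, without overlap. nr4a3, an orphan nuclear receptor of the same response, was the member that fell, at 0.944 to 74.3 TPM (median 18.0) in mutants, against 32.0 to 219.9 TPM (median 134) in siblings. Among 35 tested feedback inhibitors 6 rose and 2 fell (17.1% and 5.71%). The counts were 8 and 4 without mutant 7, 6 and 3 without sibling 1, and 6 and 3 without mutants 2 and 4. socs3a, which blocks cytokine signalling through Jak kinases, stood at 350.2 to 2569 TPM (median 1362) in mutants, against 23.4 to 89.9 TPM (median 37.3) in siblings (log2 change 4.63, SE 0.49, adjusted p = 1.02e-06). dusp1, a phosphatase of MAP kinases, fell, at 169 to 567.6 TPM (median 249) in mutants, against 404 to 1111 TPM (median 824) in siblings (log2 change -1.52, SE 0.34, adjusted p = 0.00331). Of 23 tested heat shock genes 3 rose (13%, against 5.67% of all tested genes), hsp70.2, hsp70.3 and dnajb1b. In the same list 1 fell (4.35%, against 12.7%), and dnajb1b lost its call in 3 of the 14 fits that left out a library. hsp70.3 stood at 16.7 to 1319 TPM (median 129) in mutants, against 2.83 to 212 TPM (median 11.98) in siblings. The constitutive chaperone gene hspa8 fell, at 302 to 1090.5 TPM (median 601) in mutants, against 1076 to 1594 TPM (median 1441) in siblings (adjusted p = 0.00418), and had a log2 change of 0.026 under median centring. The sources used here give no handling time of the libraries, and its part in these differences was not tested. The covariate fit gave 6 higher and 0 lower immediate-early genes and 0 calls among heat shock genes.

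Genes of growth moved in different ways. Of 81 tested cytosolic ribosomal protein genes 66 fell (81.5%) and 0 rose, against 12.7% and 5.67% of all tested genes. The 83 such genes in the table summed to 20884 to 56635 TPM (median 48129) in mutants, against 79962 to 105737 TPM (median 94102) in siblings, without overlap. rps2, a small subunit protein, stood at 372 to 1491 TPM (median 1185) in mutants, against 2551 to 4198 TPM (median 3572) in siblings (log2 change -1.80, SE 0.27, adjusted p = 8.65e-05). The count moved with scaling, to 54 lower under quantile normalization, 6 with the covariate and 0 under median centring, and the list's median log2 change was -1.38, or -0.92 relative to all tested genes. Of 28 tested replication and mitosis genes 4 rose and 1 fell (14.3% and 3.57%, against 5.67% and 12.7% of all tested genes). Without sibling 1, 2 rose and 1 fell, without mutant 7, 4 rose and 2 fell, and without mutants 2 and 4, 3 rose and 0 fell. pcna, the replication clamp, stood at 152 to 701 TPM (median 221) in mutants, against 54.8 to 174 TPM (median 68.0) in siblings (adjusted p = 0.0203). The member that fell was tubb4b, a tubulin gene, at 396 to 1361 TPM (median 883) in mutants, against 1137 to 2190.2 TPM (median 1911) in siblings, and its log2 change was 0.16 under median centring. cdkn1a, the cell cycle inhibitor p21, stood at 1.03 to 279 TPM (median 54.7) in mutants, against 0 to 0.510 TPM (median 0.238) in siblings (log2 change 4.09, adjusted p = 0.0116), the 1 of 27 tested apoptosis and p53 genes that rose. It was near the siblings in mutants 1, 2 and 5. In that list 5 genes fell, so that 3.7% rose and 18.5% fell, near the shares of all tested genes. Leaving out mutants 2 and 4 gave 2 higher and 4 lower members, and under median centring 4 were higher and 0 lower.

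Epithelial genes gave mixed results. icn, which encodes ictacalcin, was among the most abundant transcripts of both groups, at 10777 to 40528 TPM (median 17909) in mutants, against 14568 to 32178 TPM (median 24084) in siblings, and did not pass (adjusted p = 0.720). Of 9 tested keratin and ictacalcin genes 2 rose and 2 fell (22.2% each, against 5.67% and 12.7% of all tested genes). Without mutant 7, 3 rose and 2 fell. The higher krt91 stood at 399 to 2379 TPM (median 1549.6) in mutants, against 6.91 to 439.7 TPM (median 145) in siblings. krt5, a keratin gene of the epidermis, stood at 329.7 to 9242 TPM (median 942) in mutants, against 172 to 429 TPM (median 256) in siblings, with mutant 2 highest. The lower ones encode keratins of simple epithelia. krt18b stood at 0.754 to 75.3 TPM (median 5.13) in mutants, against 156 to 1072 TPM (median 533) in siblings (log2 change -6.01, SE 0.73, adjusted p = 6.23e-06). krt8 stood at 289.7 to 847 TPM (median 386) in mutants, against 1009 to 1613 TPM (median 1422) in siblings (log2 change -1.54, SE 0.28, adjusted p = 0.000522). Keratin copies resemble each other closely, so reads may be split among them. tfap2a, an ectodermal transcription factor, rose, at 27.4 to 342 TPM (median 167) in mutants, against 1.105 to 49.3 TPM (median 16.4) in siblings (log2 change 3.88, SE 0.82, adjusted p = 0.00207). It was 1 of 3 of the 19 tested epidermal fate factors that rose (15.8%, against 5.67% of all tested genes), and 1 of the 19 rose without mutant 7 or without sibling 1. Of 32 tested junction genes 2 rose and 3 fell, near the shares of all tested genes, and without mutant 7, 3 rose and 4 fell. cdh1, E-cadherin, stood at 25.2 to 161 TPM (median 68.1) in mutants, against 167 to 320.4 TPM (median 229) in siblings (log2 change -1.80, SE 0.44, adjusted p = 0.00625). ppl, the plakin periplakin, stood at 6.93 to 411 TPM (median 176) in mutants, against 0.736 to 25.4 TPM (median 5.99) in siblings (log2 change 4.38, SE 0.89, adjusted p = 0.00142). anxa1a, an annexin known for limiting inflammation, stood at 1.12 to 15.2 TPM (median 1.97) in mutants, against 129.6 to 419 TPM (median 240.0) in siblings (log2 change -5.99, SE 0.63, adjusted p = 8.36e-07). Median centring gave more higher calls in these lists, at 6 keratin genes, 8 epidermal fate factors and 10 junction genes, as it did for 21 immediate-early, 12 feedback and 17 replication and mitosis genes.

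**Figure D4:**
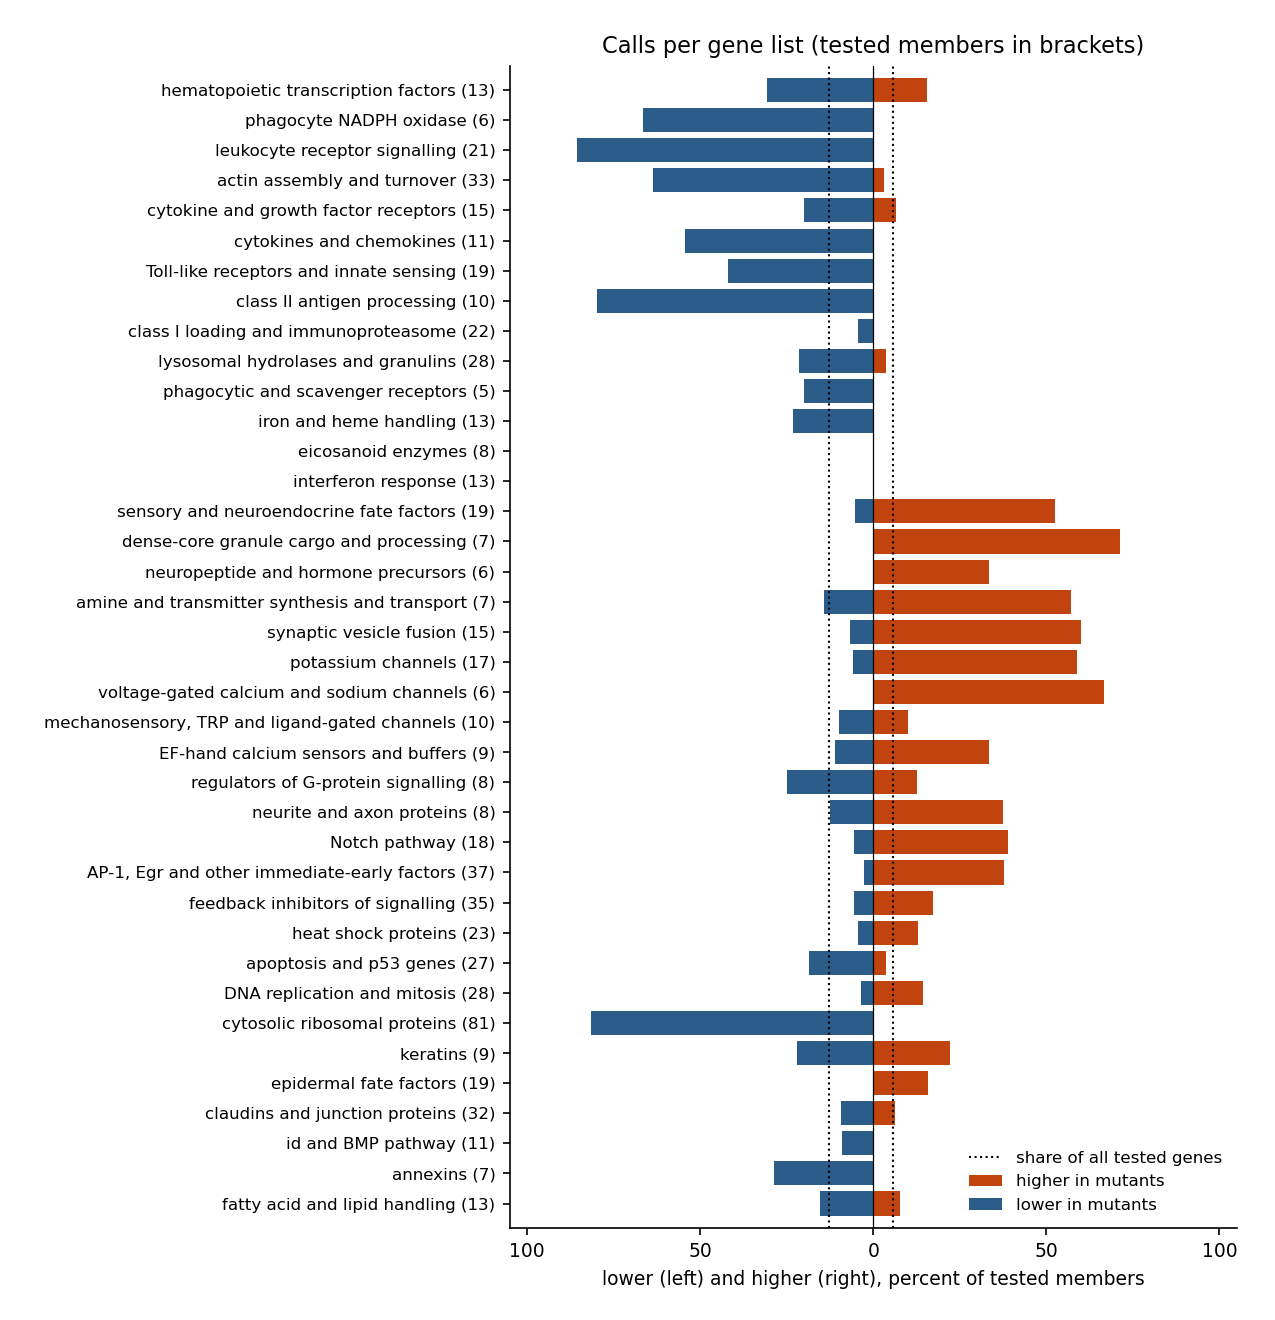
Percent of the tested members of each gene list that were lower (bars to the left) or higher (bars to the right) in mutants by limma at an adjusted p of 0.05, with the number tested in brackets and dotted lines at the shares of all tested genes, 12.7% and 5.67%. The bars of the ribosomal, leukocyte receptor signalling, class II and NADPH oxidase lists extend farthest to the left, and the granule and calcium and sodium channel lists farthest to the right, while the eicosanoid and interferon lists have no bar.

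Smaller lists held few calls each. Of 5 tested phagocytic and scavenger receptor genes 1 fell and 0 rose (20% and 0%, against 12.7% and 5.67% of all tested genes), and the median log2 change was 0.97. Of 3 tested matrix metalloproteinases and inhibitors 1 fell, mmp9 (33.3%, against 12.7% of all tested genes), and 2 had a log2 change above 0 without passing. Without mutant 7, 2 of these 3 rose, and 1 rose without sibling 1 or without mutants 2 and 4. Among 8 tested neurite and axon genes 3 rose and 1 fell (37.5% and 12.5%, against 5.67% and 12.7% of all tested genes). sncgb, a synuclein gene, stood at 10.4 to 465 TPM (median 203) in mutants, against 1.02 to 159 TPM (median 2.51) in siblings (log2 change 4.62, SE 0.99, adjusted p = 0.00240), with sibling 1 holding the high sibling value. stmn1a, a stathmin that loosens microtubules, stood at 31.2 to 268 TPM (median 124) in mutants, against 0.107 to 35.12 TPM (median 6.24) in siblings. The member that fell was gng2, a G-protein gamma subunit, at 0.466 to 62.4 TPM (median 1.201) in mutants, against 4.70 to 357 TPM (median 104) in siblings (log2 change -4.45, SE 0.97, adjusted p = 0.00271), with mutant 1 holding the high mutant value. Of 13 tested lipid genes 1 rose, the desaturase scdb at 1.5999 to 172 TPM (median 71.5) in mutants, against 0.175 to 18.7 TPM (median 0.465) in siblings, and 2 fell, elovl5 and elovl1b. These shares, 7.69% and 15.4%, were near those of all tested genes. Without mutant 7, 1 rose and 3 fell, and without mutants 2 and 4, 0 rose and 2 fell. In the Id and BMP list 1 of 11 tested members fell, the pathway inhibitor smad7 (log2 change -3.13, adjusted p = 0.0126), and 0 rose, a share near the 12.7% and 5.67% of all tested genes.

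Among the most abundant transcripts, named here after their values were seen, actb2, a cytoplasmic actin, stood at 5602 to 9373 TPM (median 6450.1) in mutants, against 18985 to 36130.0 TPM (median 27823) in siblings (log2 change -2.06, SE 0.14, adjusted p = 4.02e-09). si:dkey-193p11.2, a long non-coding RNA in the RefSeq gene table, stood at 11299 to 76731 TPM (median 69226) in mutants, against 4777 to 11532 TPM (median 6804) in siblings (log2 change 2.75, SE 0.32, adjusted p = 3.10e-06). The groups were apart for actb2 and overlapped for the non-coding RNA.

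Marker lists of cell types were read as levels. Of 21 Merkel cell markers in the table, 12 were tested and all 12 rose, most of them also members of the lists above, and 5 markers, among them sox21a, sypb and vip, were at 0 in all 14 libraries. Their sum was 593 to 8036 TPM in mutants and 17.8 to 235 TPM in siblings; mutant 7 held 593 TPM, the other mutants at least 3941 TPM, and sibling 1 the 235 TPM that was the sibling maximum. A single marker, scgn, gave 284 TPM of the sum in mutant 7 and 116 TPM of that in sibling 1. Its median in mutants was 2960 TPM, beside a median sum of 6018 TPM. A member that is low in siblings passes the filter only through the mutants, so the count of 12 carries no weight of its own. Hair cell markers summed to 94.6 to 658 TPM in mutants and 0.976 to 31.2 TPM in siblings. Of these 17 markers 10 were under 1 TPM in all 14 libraries, 4 of them at 0 throughout. Only 4 were tested, of which gfi1ab, atoh1b and lhfpl5a were higher. The limit that the filter sets on the Merkel cell count holds for this count too. Macrophage markers summed to 0.557 to 6.43 TPM in mutants and 114 to 369 TPM in siblings; mpeg1.1 and grn1 made up most of the sibling sum, and 6 of the 12, including both csf1r genes and the 3 complement C1q genes, were at 0 in all 14 libraries. B cell, erythrocyte, basal keratinocyte, neuron, pigment cell, fibroblast, endothelial and muscle lists had 0 tested members. Neuron markers still summed to 0.987 to 95.4 TPM (median 23.8) in mutants and 0 to 3.72 TPM (median 0.232) in siblings. Of these 19 markers 16 were under 1 TPM in all 14 libraries. Superficial keratinocyte markers overlapped in sum, at 15738 to 49288 TPM in mutants and 16259 to 33602 TPM in siblings. icn, a member, made up most of it, at 10777 to 40528 TPM in mutants and 14568 to 32178 TPM in siblings. Of 10 tested members 3 rose and 1 fell (30% and 10%, against 5.67% and 12.7% of all tested genes). The counts were 3 and 2 without sibling 1, 5 and 1 under quantile normalization, and 7 and 0 under median centring. Markers of taste and other chemosensory cells overlapped as well, at 242 to 1035 TPM in mutants and 399 to 1133 TPM in siblings, with 0 of 6 tested members passing limma, 2 at an unadjusted p under 0.05 and 0 in the exact rank test. pou2f3, a factor of chemosensory tuft cells in mammals, stood at 140.1 to 940.0 TPM (median 378) in mutants, against 377 to 981 TPM (median 553) in siblings (adjusted p = 0.270).

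**Figure D5:**
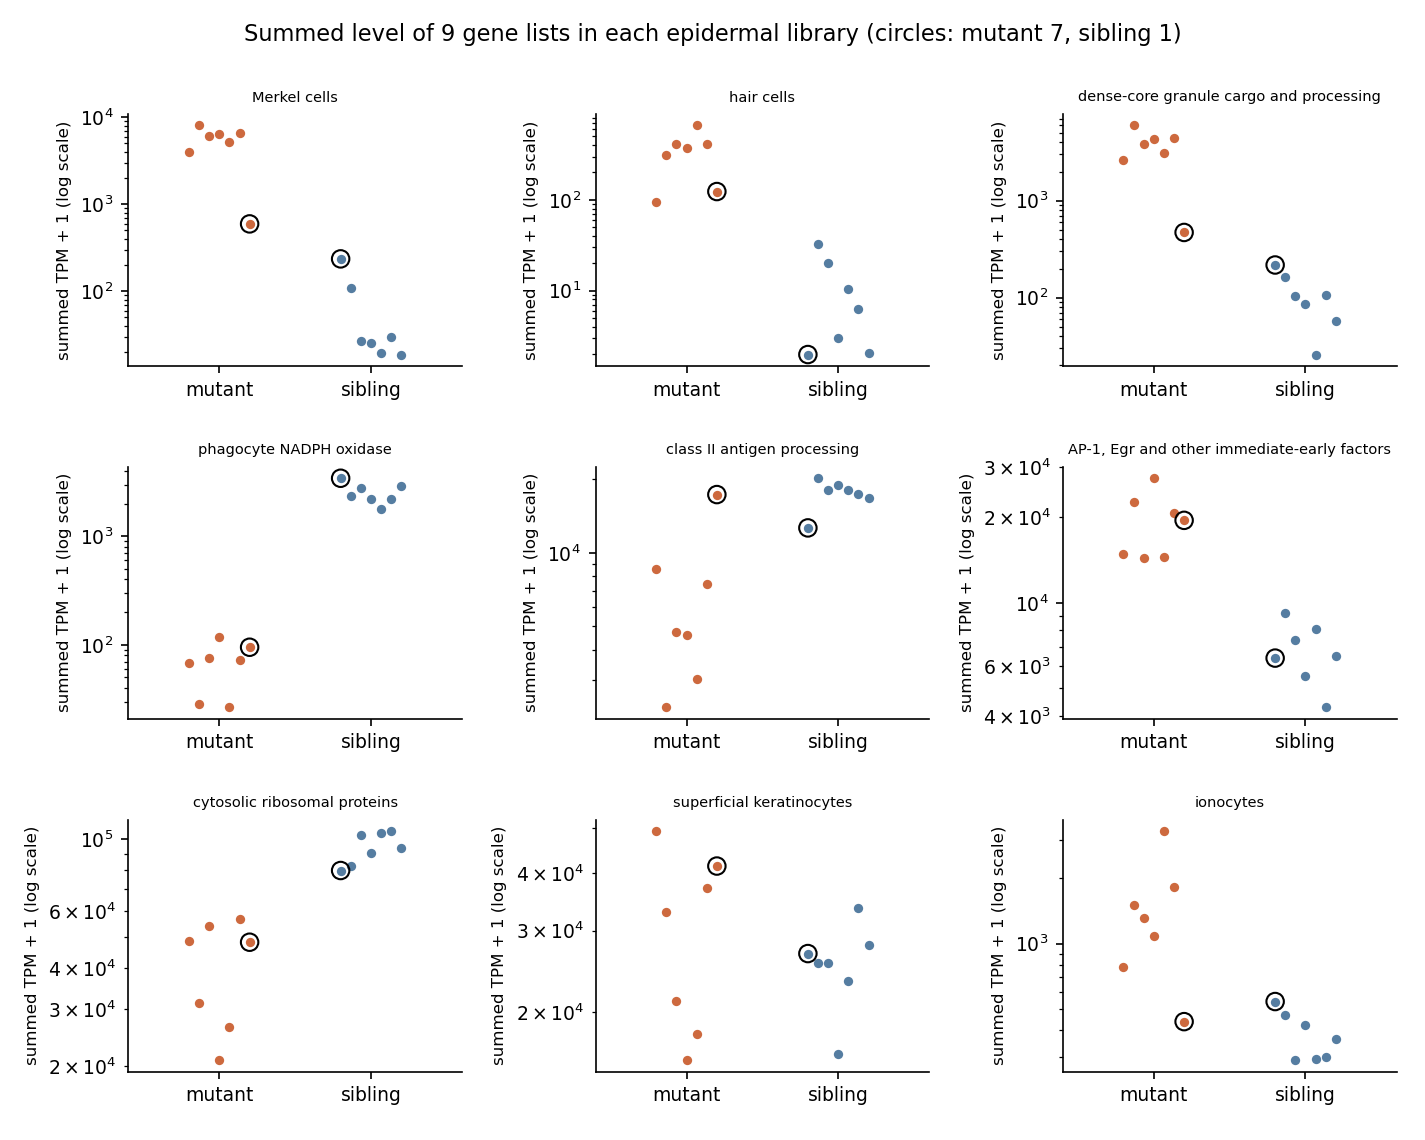
Summed TPM + 1 of 9 gene lists in each library (logarithmic vertical axes), mutants on the left and siblings on the right of each panel; each point is a library, and circles mark mutant 7 and sibling 1. Mutant 7 lies between the other mutants and the siblings for Merkel cell markers (593 TPM) and within the siblings for class II genes (17327 TPM), but with the mutants for NADPH oxidase genes.

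Ionocyte markers summed higher in most mutants, but few passed as single genes. The 29 markers of ionocytes summed to 437 to 3285 TPM in mutants and 291 to 541 TPM in siblings; mutant 7 held the 437 TPM and the other 6 mutants at least 776 TPM, above every sibling. Of 10 tested ionocyte markers 2 rose and 0 fell (20% and 0%, against 5.67% and 12.7% of all tested genes). With detected genes as a covariate 1 rose, and 3 of the 10 had a log2 change below 0. Of the 29 markers 7 were under 1 TPM in all 14 libraries. Mutant libraries also differed from each other in markers of single cell types. Mutant 7 held the mucous cell factor foxa3 at 162 TPM, against 0.242 to 0.884 TPM in the other mutants and 0.315 TPM at most in siblings, and the mucous cell gene agr2 at 1133 TPM, against 7.03 to 251 TPM in the other mutants and at most 51.5 TPM in siblings. Mutant 5 held the ionocyte factors foxi3a and gcm2 at 543 and 208 TPM, against at most 3.72 and 4.55 TPM in the other mutants and 3.07 and 2.28 TPM in siblings, and the sodium pump gene atp1a1a.3 at 653 TPM. Mutant 6 held the B cell gene cd79a at 123 TPM, against 0.972 TPM at most in the other mutants and 5.88 TPM at most in siblings. With 30 cells a library, 1 or a few cells can set such a value. atp1a1a.1, another sodium pump gene, was higher in all 7 mutants, at 264 to 925 TPM (median 794) in mutants, against 119.6 to 217 TPM (median 179) in siblings (log2 change 2.03, SE 0.35, adjusted p = 0.000338). The ionocyte sums had medians of 1305 TPM in mutants and 364 TPM in siblings, so this 1 marker made up much of them. The part of these markers in the group differences was not tested. The count of calls over all genes was 1893 without mutant 7, 1598 without sibling 1 and 1536 without mutants 2 and 4, against 1814 with all 14 libraries.

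Few genes showed a change that differed from that in gill, where 8 mutant and 5 sibling libraries were sorted in the same way. In gill 2.35% of the same genes were higher and 4.43% lower. In a fit of all 27 libraries, 12 of the 9864 genes passed for the difference between the tissues' log2 changes (0.122%), with 966 at an unadjusted p under 0.05. This count was unstable, at 54 with array weights, 35 with the replicate block, 3 under median centring and 7 to 32 when a library was left out. fosab had a log2 change of 3.55 in epidermis and 0.66 in gill, a difference of 2.88 (adjusted p = 0.00705); its gill means were 2838 TPM in mutants and 1626 TPM in siblings. socs3a had changes of 4.63 and 1.13 (difference 3.50, adjusted p = 0.0269). For both genes the mean of the gill siblings was above that of the epidermal siblings. cd74b had changes of -1.36 in epidermis and 0.37 in gill (adjusted p = 0.0342). Named after their values were seen, esr2a, an oestrogen receptor gene, had changes of 5.66 and 0.41, pfkfb3, an enzyme that regulates glycolysis, of -3.46 and 1.92, and gpr157, an orphan receptor gene, of -3.92 and 1.94, with adjusted p for the difference of 0.0187, 0.0153 and 0.0193 in limma. The gill change alone passed limma for none of fosab, socs3a, cd74b, esr2a, pfkfb3 and gpr157. Its adjusted p was 0.114 for pfkfb3 and 0.181 for gpr157. In mutant gill, gpr157 reached 1 TPM in 3 of 8 libraries (median 0.660 TPM) and esr2a in 1. esr2a, pfkfb3, gpr157 and fosab passed in all 27 fits that left out 1 library, socs3a in 23 and cd74b in 17. Most genes named above, among them spi1a, ncf1, sox2 and scgn, did not pass for a difference between the tissues (adjusted p of 0.929, 0.807, 0.703 and 0.440), which does not show that their changes were equal.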

How the data were processed

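RNA of 30 sorted cells per library was reverse transcribed with an oligo-dT primer and amplified over 23 PCR cycles by Smart-seq2, per the labels' protocols. The authors deposited a table of TPM values for 32520 genes and 27 libraries, and each column carried a sample's label. STAR, featureCounts and DESeq2 and the builds GRCz11 and danRer11 are named in the submitters' processing notes; the sources used here do not say how these led to the TPM values. TPM keeps no depth, so the depth is unknown and no counting interval is given. With 23 PCR cycles from 30 cells, low values in particular rest on few molecules. Columns without a sample numbered 0.

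A gene was tested if it reached 1 TPM in 5 or more of the 14 epidermal libraries (9864 genes), on log2(TPM + 1), a scale that understates the changes of low genes. limma 3.58.1 in R 4.3.3, with a mean trend in the prior variance, gave log2 changes (mutant minus sibling), standard errors and Benjamini-Hochberg adjusted p values over all tested genes, with a threshold of 0.05. Every adjusted p comes from this tool. spic itself was tested by an exact permutation test. The difference from gill came from a fit of all 27 libraries. No test was run over a gene list; list counts are read against the shares of all tested genes. The scripts were tested on simulated data. Tables and figures were made with Python 3.11.15 and matplotlib 3.10.9.

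The comparison and the 40 gene lists and 18 cell type lists were chosen with earlier results of these data known. Genes named are spic, mpeg1.1, the 12 largest changes per direction among genes past the threshold with a group mean of at least 10 TPM, clone-based names left out, all tested members of lists with up to 8 tested, and for longer lists the 6 with the smallest p plus up to 3 that passed against the majority direction, and cell type markers with a group mean of at least 10 TPM. Members of longer lists named only to complete a count, and genes said to be so, were chosen after their values were seen. Some genes that the rule selects are not reported here. No 2 libraries held identical values, and the highest correlation between libraries was 0.719. Alternatives were pseudocounts of 0.1 and 10, no filter on low values, a filter of 5 TPM in 7 libraries, array weights, median centring, quantile normalization, detected genes as a covariate, a replicate block, a rank test, 1 fit of all libraries and leaving out libraries. Gene names are those of the deposited table.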

Additional observations from a re-analysis of the deposited data

Results flagged for a closer look

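In 292 groups of 7 libraries, 1 per named gene or library measure and group, 63 had a library set apart from the other 6 by Dixon's criterion on log2(TPM + 1). Chance flags about 1 in 20 such groups, and values near 0 are flagged easily. Mutant 7 held 22 of the 63 and sibling 1 held 11; mutant 3 held 0.

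Mutant 7 was low where the other mutants were high. It held scgn at 284 TPM, against 2103 to 4756 TPM in the other mutants, insm1b at 5.65, against 173 to 685 TPM, insm1a at 36.8, against 420.1 to 608 TPM, and pou4f1 at 1.56, against 45.6 to 149 TPM. Its rgs5a was 185 TPM, fxyd6 6.76 TPM, vamp2 22.2 TPM, snap25a 1.02 TPM, kcnq1.1 17.6 TPM, kcnab1a 3.12 TPM and dll4 1.25 TPM, each below the range of the other mutants. So were yjefn3 at 2.08 TPM, capga at 26.9 TPM, il13ra1 at 500.2 TPM, krt91 at 399 TPM, ppl at 6.93 TPM, atp1a1a.1 at 264 TPM, esr2a at 4.49 TPM and si:dkey-193p11.2 at 11299 TPM. It was high for sox3 at 273 TPM, grp at 864 TPM and foxa3 at 162 TPM, none of which exceeded 4.87 TPM in another mutant.

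Sibling 1 was high for genes that were higher in mutants. It held sncgb at 159 TPM, against 1.02 to 4.64 TPM in the other siblings, kitlgb at 51.3, against 0.314 to 2.63 TPM, and atoh1a at 39.0, against 1.65 to 4.603 TPM. It also stood above the other siblings for kcnq1.1 at 29.3 TPM, cacna1ea at 14.7 TPM, chga at 12.4 TPM, tph1a at 9.499 TPM and dll4 at 3.18 TPM. It was low for gng2 at 4.70 TPM, rps2 at 2551 TPM and agr2 at 1.61 TPM.

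Other mutants stood apart singly. Mutant 5 was high for foxi3a at 543 TPM, gcm2 at 208 TPM, atp1a1a.3 at 653 TPM and fermt3b at 2.33 TPM, and low for tfap2a at 27.4 TPM. Mutant 2 was high for ccl20a.3 at 793 TPM, junba at 2762 TPM and anxa1a at 15.2 TPM. Mutant 1 was high for arpc1b at 76.9 TPM, gng2 at 62.4 TPM and gpr157 at 0.4998 TPM, mutant 4 for krt18b at 75.3 TPM and irak4 at 0.828 TPM, and mutant 6 for cd79a at 123 TPM and ncf4 at 2.98 TPM.

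Among the other siblings, sibling 2 was high for gfi1ab at 28.0 TPM and cd74b at 6335 TPM, and its 10 most abundant genes took a low 25.9% of all TPM. Sibling 3 was high for hmox2a at 7.37 TPM and gcm2 at 2.28 TPM, sibling 4 for hsp70.2 at 91.6 TPM and cd79a at 5.88 TPM, and sibling 5 for lhfpl5a at 6.85 TPM but low for cybb at 4.70 TPM. Sibling 6 was low for fth1a at 9624 TPM, alox5a at 90.9 TPM and hspa8 at 1076 TPM. Sibling 7 was high for capga at 25.5 TPM and low for ccl20a.3 at 68.3 TPM and snap23.1 at 58.9 TPM.

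For 6 of the named genes the change in epidermis differed from the change in gill by the test of the difference. The difference on the log2 scale, epidermis minus gill, was 2.88 for fosab, 3.50 for socs3a, 5.25 for esr2a, -1.72 for cd74b, -5.38 for pfkfb3 and -5.86 for gpr157.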

How the results depend on the processing

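The count of 1814 called genes stayed within 1.5 times under all but 1 of the alternatives run. It was 742 with detected genes as a covariate, where 299 were higher and 443 lower; detected genes differ between the groups, so this fit removes part of the group difference by construction. Median centring gave 1500 higher and 397 lower genes, and quantile normalization 843 higher and 1021 lower; the cause of this dependence on scaling was not tested. The stricter filter, under which fewer genes were tested, gave 311 higher and 913 lower genes. Leaving out each library in turn gave 1573 to 1893 calls, of which 473 to 578 higher and 1087 to 1315 lower. Leaving out mutants 2 and 4, and then sibling 1 as well, both chosen after the data were seen, gave 1536 and 1317 calls. The change of spic stayed between -4.92 and -3.34 on the log2 scale in the settings checked for it. These were pseudocounts of 0.1 and 10, median centring, quantile normalization, the replicate block and leaving out each library in turn. The range does not cover the other alternatives, among them the covariate. Of 289 values of named genes, 3 reversed, all under median centring: hspa8 to 0.026, tubb4b to 0.16 and icn to 1.05; 69 lost their call with the covariate, 44 under median centring, 29 with no filter and 28 in the rank test. The 12 genes whose change differed from that in gill were the least stable count, at 54 with array weights, 20 with a pseudocount of 0.1, 3 under median centring and 7 to 32 when a library was left out, among them 32 without mutant 1 of epidermis, 23 without mutant 7 of epidermis, 25 and 21 without mutants 8 and 4 of gill, and 7 without sibling 4 of epidermis or sibling 1 of gill. Mutants and siblings with the same replicate number varied together weakly, with correlations of deviations of 0.0049 to 0.0621, all above 0 and 0 of 7 pairs over 0.1. Of 7 mutants 6 correlated best with the sibling of their own number, a hint of shared structure from the data and not from the design. The main fit did not use the number. With the number as a block, 1731 genes passed and 35 for the difference from gill. Since TPM hides the depth, differences among genes of a few TPM may lie below what 30 cells can show.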
